A study of Mus musculus with 48 samples.

Results

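The genes described here are 6 members of the antigen presentation machinery, out of 478 genes in each of the authors' deposited tables: H2-D1 and H2-T23, which encode class I heavy chains, B2m, Tap1, Psmb8 and Cd74. They were taken by symbol, and all 6 were present in all 3 tables. Microglia, the macrophages that reside in brain tissue, were sorted from the hippocampus of Balbc/Byj mouse pups aged 17 days, about 60000 cells from each animal, and RNA molecules were counted on a glial nCounter panel with fluorescent barcoded probes. The groups were LB, UPS and CTL, each of 16 animals (8 of either sex), and CTL pups were reared under control conditions. As background, LB stands for limited bedding and UPS for unpredictable postnatal stress, which are mouse models of early adversity, and no transgene or drug is named for any group. The pups of a group and sex came from 4 to 5 litters and were run in 4 batches of 12 reactions. Animals of a litter share a mother and a cage, and litter was not part of the tests.

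Class I molecules display peptides from inside the cell to CD8 T cells and to receptors of natural killer cells. A heavy chain such as the product of H2-D1 pairs with the invariant light chain beta-2 microglobulin, encoded by B2m, and is loaded in the endoplasmic reticulum. Peptides are cut by proteasomes, in which the interferon-inducible subunit encoded by Psmb8 can replace its constitutive counterpart, and they reach the endoplasmic reticulum through a transporter of which the Tap1 product is a subunit. H2-T23 encodes Qa-1, a nonclassical heavy chain that presents leader peptides of other class I molecules to CD94/NKG2 receptors. Cd74 encodes the invariant chain, which chaperones class II molecules, the display route for peptides from endocytosed protein. Resting microglia are known for low surface levels of these molecules and for raising them under interferon.

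The promoters of the class I genes are shown because these genes are known to share upstream elements. RefSeq windows (GRCm38.p6, from C57BL/6J mice) were used for 5 of the 6 genes, and the 250 bases before the annotated start are printed 5′ to 3′ on the strand of the gene for the heavy chains, the light chain and the transporter subunit. Capitals mark matches, on either strand, to the interferon regulatory factor core AANNGAAA, to an NF-kB-like element (GGGA and CC with any 4 bases between them), to the cyclic AMP response element core TGACG that forms part of the X box, and to the CCAAT box. These are the sequences at chr17:35262844-35263093 (plus strand) for H2-D1, chr17:36032702-36032951 (minus strand) for H2-T23, chr2:122147437-122147686 (plus strand) for B2m and chr17:34187306-34187555 (plus strand) for Tap1.
H2-D1: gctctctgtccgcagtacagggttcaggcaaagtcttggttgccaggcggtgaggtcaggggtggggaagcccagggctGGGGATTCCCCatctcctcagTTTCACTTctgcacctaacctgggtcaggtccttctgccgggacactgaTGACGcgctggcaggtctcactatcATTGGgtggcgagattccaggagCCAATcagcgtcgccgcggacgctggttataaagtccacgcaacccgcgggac
H2-T23: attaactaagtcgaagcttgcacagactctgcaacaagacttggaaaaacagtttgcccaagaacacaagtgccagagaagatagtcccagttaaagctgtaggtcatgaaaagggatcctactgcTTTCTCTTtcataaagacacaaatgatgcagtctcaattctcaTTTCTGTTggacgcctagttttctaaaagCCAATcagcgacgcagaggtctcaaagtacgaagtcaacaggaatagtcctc
B2m: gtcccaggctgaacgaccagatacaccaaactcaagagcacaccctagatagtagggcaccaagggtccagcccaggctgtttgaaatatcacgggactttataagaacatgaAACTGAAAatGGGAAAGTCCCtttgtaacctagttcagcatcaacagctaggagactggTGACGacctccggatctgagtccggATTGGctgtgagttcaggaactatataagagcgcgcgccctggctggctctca
Tap1: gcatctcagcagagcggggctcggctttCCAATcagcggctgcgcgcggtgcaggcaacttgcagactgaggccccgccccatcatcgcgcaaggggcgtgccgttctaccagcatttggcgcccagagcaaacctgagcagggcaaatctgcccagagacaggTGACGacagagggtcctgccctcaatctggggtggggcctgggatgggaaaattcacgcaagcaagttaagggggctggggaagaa

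H2-D1 and B2m held all 4 elements. In H2-D1 the NF-kB-like match began 171 bases before the start, the interferon regulatory factor core 150, the TGACG core 101 and the CCAAT boxes 76 and 53 bases before it. In B2m the interferon regulatory factor core came first, 137 bases before the start, followed by the NF-kB-like match at 127, the TGACG core at 78 and a CCAAT box at 53. H2-T23 had interferon regulatory factor cores at 124 and 81 and a CCAAT box at 52 bases, with no match to TGACG or to the NF-kB-like element in this window. The longest stretch common to the H2-D1 and H2-T23 windows was the 12 bases AGCCAATCAGCG, which begin 55 and 54 bases before the starts of those genes. From its CCAAT box on, this stretch also occurs in the Tap1 window, 222 bases before the start, so it is not limited to the heavy chains. Tap1 had a TGACG core 86 and a CCAAT box 222 bases before the start, and the Psmb8 window held none of the 4. Of 32851 RefSeq promoter windows of the same length, 21.3% held the interferon regulatory factor core, 17.6% the NF-kB-like element, 17.8% TGACG and 33.8% the CCAAT box, so each of these short matches is frequent. They describe the reference letters. As background, BALB/c mice carry another haplotype of the class I region than C57BL/6J, so the letters in these pups may differ.

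Each table compares a pair of rearing groups with the sexes pooled and batch as a covariate, and it gives a log2 ratio, a linear ratio, a p-value and an adjusted p-value for each gene. Neither the file headers nor the labels say which group is the numerator, so each sign is printed as the file has it and gives no direction between LB, UPS and CTL. The tables are tied by their arithmetic, so a positive value means more transcript in LB against CTL, in UPS against CTL and in UPS against LB, or it means less in each of them. Values of single libraries were not analysed here, and the depth of the libraries is unknown. The spread was therefore recovered from each ratio and its two-sided p as a standard error, which was common to the 3 tables of a gene. A gene passed at a Benjamini-Hochberg adjusted p below 0.05 over all 478 genes.

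None of the 6 genes passed by the authors' nSolver test in any of the 3 authors' deposited tables. For LB and CTL 0 of 6 passed, where the share of all genes that passed was 0%. The counts were 0 of 6 against a share of 4.81% between UPS and CTL, and 0 of 6 against 6.28% between UPS and LB. At an unadjusted p below 0.05 there were 2 of the 6 between LB and CTL (11.7% of all genes), H2-D1 and Tap1, and 0 of the 6 between UPS and CTL (16.3% of all genes) and between UPS and LB (18.8%). The adjusted p of the 6 genes ran from 0.194 to 0.98 between LB and CTL, from 0.394 to 0.87 between UPS and CTL and from 0.386 to 0.981 between UPS and LB with Benjamini-Hochberg adjustment. A p above the threshold does not show that the groups were alike, and the intervals below give the differences that the tables leave room for.

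**Figure D1:**
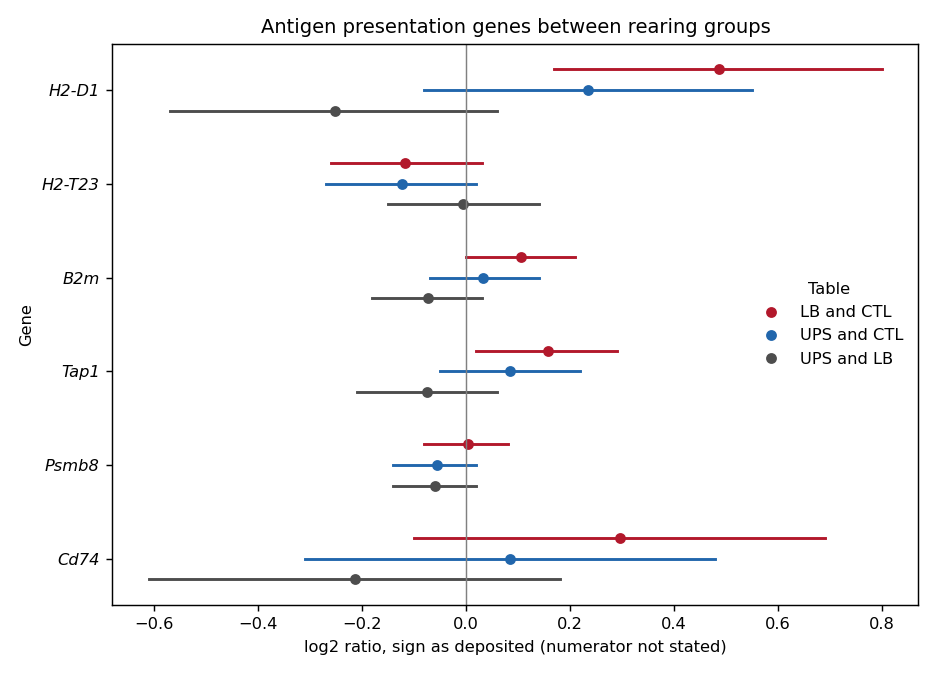
Log2 ratio (x axis, sign as deposited) of the 6 antigen presentation genes (y axis) in each of the 3 authors' deposited tables, as points with 95% intervals from the recovered standard error. The intervals of H2-D1 (0.17 to 0.80) and Tap1 (0.02 to 0.29) between LB and CTL lie to one side of 0, and the other 16 include it.

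H2-D1, the classical heavy chain, had the largest ratio of the 6 between LB and CTL. Its log2 ratio in the authors' deposited table was 0.487, a linear ratio of 1.4, with a 95% interval from 1.13-fold to 1.74-fold. In the authors' deposited table its p of 0.00328 was the 6th smallest of 478 genes and its size the 7th largest, yet the Benjamini-Hochberg adjusted p was 0.194. For UPS and CTL the authors' deposited table gave 0.234 (interval -0.08 to 0.55, p = 0.142, adjusted p = 0.451). Between UPS and LB the authors' deposited table gave -0.253 (interval -0.57 to 0.06, p = 0.113, adjusted p = 0.385). Only the interval for LB and CTL excluded 0. The 3 ratios share their libraries, since the UPS and LB value equals the UPS and CTL value minus the LB and CTL value to within 0.003 for every gene. In sorted cells counted in bulk, fewer cells carrying a transcript and less transcript per cell cannot be told apart.

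The sequences of the panel's probes were not used here. Class I heavy chain genes are close paralogs, BALB/c mice express heavy chains that the reference strain lacks, and whether the H2-D1 probe also counts other class I transcripts was not tested. The H2-D1 values are uncertain in that respect.

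H2-T23, the nonclassical heavy chain, carried the opposite sign to H2-D1 in the tables against CTL. Its log2 ratio in the authors' deposited table was -0.117 between LB and CTL (interval -0.26 to 0.03, p = 0.113, adjusted p = 0.499). A similar value came from the authors' deposited table for UPS and CTL, -0.123 (interval -0.27 to 0.02, p = 0.0981, adjusted p = 0.394). The ratio between UPS and LB was close to 0, at -0.00533 in the authors' deposited table (interval 0.9-fold to 1.1-fold, p = 0.942). The intervals of H2-D1 and H2-T23 for LB and CTL do not overlap. The difference between the genes was not tested itself, because the tables hold no covariance between genes.

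B2m, the light chain that all class I molecules need, had small ratios measured with a narrower error. Its log2 ratio between LB and CTL in the authors' deposited table was 0.106, a linear ratio of 1.08 (interval -0.00039 to 0.21), with p = 0.0508 and an adjusted p of 0.413. It was 0.0325 between UPS and CTL in the authors' deposited table (interval -0.07 to 0.14, p = 0.541). It was -0.0734 between UPS and LB in the authors' deposited table (interval -0.18 to 0.03, p = 0.171). A B2m difference above 1.16-fold between LB and CTL, above 1.1-fold between UPS and CTL, or below 0.883-fold between UPS and LB lay outside these intervals.

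Tap1, the peptide transporter subunit, was the other gene with an unadjusted p below 0.05. Its log2 ratio between LB and CTL was 0.158 in the authors' deposited table, a linear ratio of 1.12 (interval 0.02 to 0.29), with p = 0.0239, the 32nd smallest of 478, and an adjusted p of 0.357. The authors' deposited table gave 0.0839 for UPS and CTL (interval -0.05 to 0.22, p = 0.222). It gave -0.0745 for UPS and LB, again in the authors' deposited table (interval -0.21 to 0.06, p = 0.275). The Tap1 interval for LB and CTL lay just above 0, and those of the other tables included it.

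Psmb8, the immunoproteasome subunit, was the most precisely measured of the 6 and the one with the smallest ratio between LB and CTL. That log2 ratio was 0.00325 in the authors' deposited table (p = 0.935), with an interval from 0.948-fold to 1.06-fold. The Psmb8 ratio was -0.0555 between UPS and CTL (interval -0.14 to 0.02, p = 0.17) and -0.0588 between UPS and LB (interval -0.14 to 0.02, p = 0.147) in the authors' deposited tables. As background, Psmb8 and Tap1 are neighbouring genes in the class II region and interferon is known to induce both. Their intervals between LB and CTL overlap (-0.08 to 0.08 for Psmb8, 0.02 to 0.29 for Tap1).

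Cd74, the class II chaperone, had wide intervals. Its log2 ratio between LB and CTL was 0.297 in the authors' deposited table, a linear ratio of 1.23 and the 19th largest size of 478, but the interval ran from 0.935-fold to 1.61-fold (p = 0.135, adjusted p = 0.535). Cd74 was at 0.0842 between UPS and CTL in the authors' deposited table (interval -0.31 to 0.48, p = 0.67). It was at -0.213 between UPS and LB in the authors' deposited table (interval -0.61 to 0.18, p = 0.28).

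**Figure D2:**
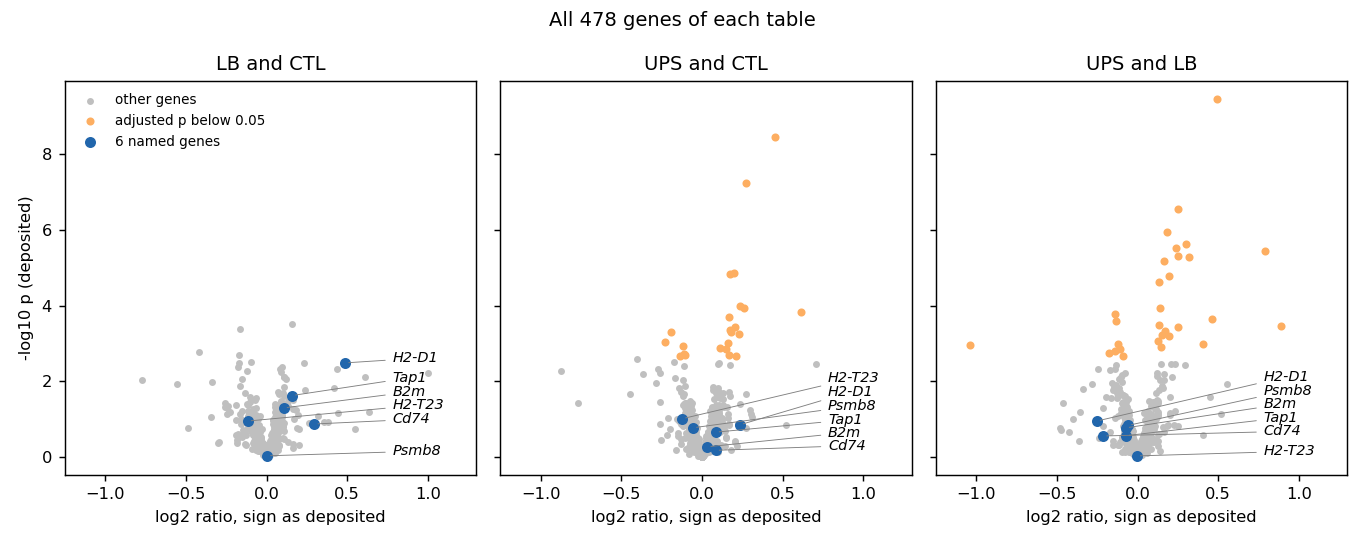
Deposited log2 ratio (x axis) and -log10 of the deposited p (y axis) of all 478 genes in the 3 tables, with the 6 antigen presentation genes in blue and genes past the adjusted threshold in orange. All 6 blue points lie among the grey ones, and H2-D1 between LB and CTL stands highest of them.

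The 6 genes differed in how precisely their ratios were measured. The recovered standard error on the log2 scale was 0.195 for Cd74 and 0.156 for H2-D1, the 18th and 31st highest of 478 genes, against a median of 0.0502 over all genes. H2-T23 had 0.0727, Tap1 0.0674, B2m 0.0527 and Psmb8 0.0398, the last at rank 338. If the fit was an ordinary linear model with equal spread in the groups, these errors correspond to a residual SD between animals of 0.551 log2 units (1.47-fold) for Cd74, 0.442 (1.36-fold) for H2-D1, 0.206 for H2-T23, 0.191 for Tap1, 0.149 for B2m and 0.113 (1.08-fold) for Psmb8. The median over all genes was 0.142, close to the SD of B2m, above that of Psmb8 and well below those of Cd74 and H2-D1. Counting noise of weakly expressed genes enters this SD, and the levels of the genes were not analysed here.

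**Figure D3:**
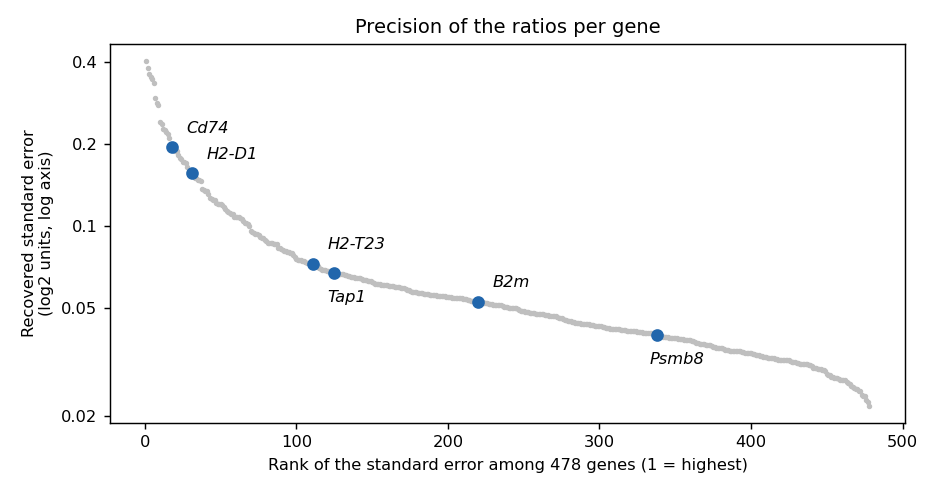
Recovered standard error in log2 units (y axis, log scale) against its rank among 478 genes (x axis, 1 is the highest), with the 6 antigen presentation genes in blue. Cd74 (0.195) and H2-D1 (0.156) lie at the steep left end and Psmb8 (0.0398) to the right of the middle.

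A single test over the 3 rearing groups, an F statistic computed from the 3 ratios of a gene and its standard error, was chosen after the data were seen. It called 0 of the 6 genes, where 6.9% of all genes were called after Benjamini-Hochberg adjustment (33 of 478). H2-D1 had the smallest p of the 6 (p = 0.0126, adjusted p = 0.116, rank 51 of 478), followed by Tap1 (p = 0.0752, adjusted p = 0.295), and the other 4 had p between 0.133 and 0.301. At an unadjusted p below 0.05 this test held 1 of the 6 genes, H2-D1, and 19.7% of all genes.

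Signs among the 6 genes are given as counts. For LB and CTL 5 of 6 ratios were positive (52.7% of all genes), with a median log2 ratio of 0.132 against 0.00351 over all genes. For UPS and CTL 4 of 6 were positive (48.7% of all genes), with a median of 0.0582 against -0.00245. For UPS and LB 0 of 6 were positive (43.9% of all genes), with a median of -0.074 against -0.0102. The 3 tables share their libraries, so these counts are not separate observations, and centring on the median of all genes turns the sign of Psmb8 between LB and CTL and of H2-T23 between UPS and LB.

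Further genes of these pathways add little. The 18 other genes listed for the class I route, among them H2-K1, Tap2, Psmb9 and the transactivator Nlrc5, were not analysed here, and of 13 genes of the class II route and costimulation 3 were, all lysosomal proteases. None of these passed in any of the authors' deposited tables. Ctss, the cathepsin that trims the invariant chain in class II compartments, had a log2 ratio of -0.153 between LB and CTL in the authors' deposited table (p = 0.00885, adjusted p = 0.209), with the opposite sign to Cd74. Ctss was at -0.116 between UPS and CTL (p = 0.0437, adjusted p = 0.299) and at 0.0371 between UPS and LB (p = 0.509) in the authors' deposited tables. The protease Ctsl was at -0.0126, -0.0719 and -0.0593 in the authors' deposited tables for LB and CTL, UPS and CTL, and UPS and LB, and the asparaginyl endopeptidase Lgmn at 0.0138, -0.0133 and -0.0272.

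Interferon genes are the known inducers and companions of the class I route, and 7 of a list of 24 were analysed. None passed in any table. All 7 ratios between LB and CTL were positive (52.7% of all genes), with a median of 0.0746 against 0.00351 over all genes. The antiviral effectors Ifit3 and Mx1 had 0.637 and 0.547 for LB and CTL in the authors' deposited table, with wide errors (p = 0.065 and p = 0.182). Ifit3 was at 0.214 between UPS and CTL (p = 0.529) and at -0.423 between UPS and LB (p = 0.214) in the authors' deposited tables. Of the same 7 genes 4 were positive between UPS and CTL (48.7% of all genes), with a median of 0.0436 against -0.00245. A single gene of the 7 was positive between UPS and LB (43.9% of all genes), with a median of -0.0513 against -0.0102. Ifnar1 and Ifngr2, subunits of the type I and type II interferon receptors, lay between -0.0513 and 0.0544 in the authors' deposited tables. The 5 listed NF-kB genes were not analysed here.

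The constitutive proteasome offered a comparison for Psmb8, with 6 subunits analysed. None passed. Of these, 4 of 6 ratios were positive between LB and CTL (52.7% of all genes). The median was 0.0105, beside 0.00325 for Psmb8 in the authors' deposited table. None of the 6 was positive between UPS and CTL (48.7% of all genes) or between UPS and LB (43.9%). The medians were -0.05 and -0.065, beside -0.0555 and -0.0588 for Psmb8 in the authors' deposited tables. Over all genes the medians of these tables were -0.00245 and -0.0102. Psmd14, the deubiquitinase of the proteasome lid, had the smallest p of these subunits, at -0.0983 between UPS and LB in the authors' deposited table (p = 0.00683, adjusted p = 0.0778). Psmc2, an ATPase of the proteasome base, followed there at -0.0517 in the authors' deposited table (p = 0.0758), and Psma5, a subunit of the core particle, at -0.0656 (p = 0.151).

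**Figure D4:**
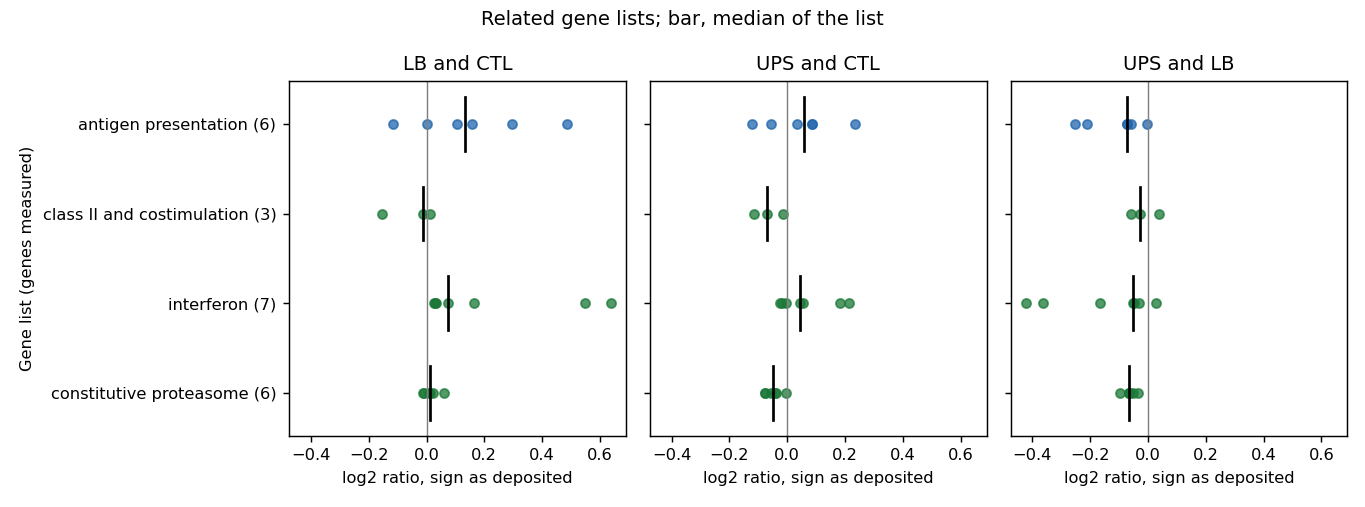
Log2 ratios (x axis, sign as deposited) of the 6 antigen presentation genes in blue and of 3 related lists in green (y axis) in the 3 tables, each point a gene and each bar the median of the list. The medians are given for antigen presentation, class II and costimulation, interferon and constitutive proteasome in that order. Between LB and CTL they are 0.132, -0.0126, 0.0746 and 0.0105. Between UPS and CTL they are 0.0582, -0.0719, 0.0436 and -0.05. Between UPS and LB they are -0.074, -0.0272, -0.0513 and -0.065.

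Genes with similar ratios were found by distance in the plane of the ratios against CTL, over 3 groups. For H2-D1 the nearest were the monocyte chemokine Ccl12 (distance 0.0514 log2 units), the immediate early gene Egr1 (0.0522) and Mx1 (0.0794). For Cd74 they were the chemokine Ccl2 (0.0431), the sodium-calcium exchanger Slc24a3 (0.0946) and the protease Adamts1 (0.0993). Tap1 lay near the chemokine Ccl3 (0.00639) and Dnajb9 (0.0157), and B2m near the metabolic enzymes Acadsb (0.00483) and Acat2 (0.0076) and near Tmsb4x (0.00847). H2-T23 lay near the lysozyme gene Lyz2 (0.0086) and Hsd17b4 (0.0182), and Psmb8 near Nlrp1b (0.00222), Rock2 (0.0043) and the ferritin heavy chain Fth1 (0.00454). Small ratios crowd near 0, so short distances there are common. The distances use the ratios alone, without their errors. For H2-D1 and Cd74 each distance was below the gene's own standard error (0.156 and 0.195). Which genes lie nearest is therefore uncertain, and a shared response was not tested.

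Markers of other cells that could carry class I or class II transcripts were read beside the 6 genes. All 8 microglial markers on the list were analysed, and 1 of them, Tmem119, passed in 1 table, at 0.462 between UPS and LB in the authors' deposited table (adjusted p = 0.0076). The share of all genes that passed between UPS and LB was 6.28%. Tmem119 does not stand for the list, since 4 of the 8 ratios between UPS and LB were positive (43.9% of all genes) and 4 negative. Their median was 0.00593 against -0.0102 over all genes. Positive ratios numbered 2 of 8 between LB and CTL (52.7% of all genes) and 4 of 8 between UPS and CTL (48.7%). Of 8 border macrophage markers 1 was analysed, Stab1, at 0.00974 between LB and CTL, 0.205 between UPS and CTL (adjusted p = 0.0197) and 0.195 between UPS and LB (adjusted p = 0.0146) in the authors' deposited tables. The 6 dendritic cell, 4 monocyte and 4 B cell markers on the lists were not analysed here, so the tables used give no value for these cells, some of them rich in class II. Klrd1, a natural killer cell receptor chain that binds Qa-1 and the 1 analysed of 7 T and NK cell markers, was at -0.296, -0.77 (p = 0.0388, adjusted p = 0.294) and -0.473 in the authors' deposited tables for LB and CTL, UPS and CTL, and UPS and LB. Its errors were wide, with a recovered standard error of 0.361 against a median of 0.0502 over all genes. The intervals in the same order were -1.02 to 0.43, -1.50 to -0.04 and -1.20 to 0.26. Among the remaining markers, of neutrophils, vascular cells, astrocytes and neurons, the astrocyte glutamate transporter Slc1a3 passed, at 0.21 between UPS and CTL (adjusted p = 0.0461) and 0.25 between UPS and LB (adjusted p = 0.00995) in the authors' deposited tables. Cd34, a vascular and progenitor surface protein, did not pass between LB and CTL, at -0.419 (adjusted p = 0.194), or between UPS and CTL, at -0.4 (adjusted p = 0.0511), in the authors' deposited tables. Pecam1, the other vascular marker analysed, was at -0.0345 (p = 0.676) and 0.0331 (p = 0.687) in the authors' deposited tables for the same pairs. Csf3r, a growth factor receptor of neutrophils and the 1 analysed of their 4 markers, was at -0.168 between LB and CTL in the authors' deposited table, with p = 0.00204 and the same adjusted p of 0.194 as H2-D1. Its ratio was -0.0622 between UPS and CTL (p = 0.231) and 0.106 between UPS and LB (p = 0.0443, adjusted p = 0.245) in the authors' deposited tables. The astrocyte gene Glul and the neuronal gene Gad1 were at -0.0472 and -0.0502 between LB and CTL in the authors' deposited table, and neither passed in any table. Glul was at 0.107 between UPS and CTL (adjusted p = 0.363) and 0.154 between UPS and LB (adjusted p = 0.117) in the authors' deposited tables. The part of other cells in the ratios of the 6 genes was not tested.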

How the data were processed

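Hippocampal microglia of 48 pups in 3 rearing groups were profiled on an nCounter glial panel. The files were the authors' own comparison tables of 478 genes each. Per the file headers each deposited table gives, gene by gene, the fold change on the log2 scale and as a linear ratio, and the p-value before and after Benjamini-Hochberg adjustment. Per the series text, genes above 20 counts were compared with the advanced analysis of nSolver and batch as a covariate. The normalization is not given in the sources used here. Of the gene symbols 476 matched a GRCm38.p6 gene table, the 6 genes among them.

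From these values p-values were adjusted again over each table (Benjamini-Hochberg, same calls as the deposited column), and standard errors were recovered from each log2 ratio and its p with a t distribution on 42 residual degrees of freedom (all 48 libraries with rearing and batch), taken from the table with the smallest p. That model gave the smallest mismatch between the tables of a gene (0.133%, against 0.139% to 0.159% for other models of all libraries and 0.431% and 0.581% for fits of 2 groups), so the choice among models of all libraries is not settled. The F statistic over 3 groups is the sum of the squared ratios over 3 times the squared standard error. Recovery and F were tested on simulated data, drawn from the same linear model of rearing and batch with normal errors and no litter effect. That test checks the arithmetic and not whether the model holds for these animals. If littermates resemble each other, p-values and intervals are too small.

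The 6 genes and the gene lists were chosen with earlier results of these data known, and the promoter elements after the sequences were seen. Named were all 6 genes, list genes past the threshold or otherwise the 3 smallest p per list, and the 3 nearest genes by distance. Further genes are named to complete a description. Some genes that this rule names are not reported here. Python 3.11.15, scipy 1.17.1, pandas 2.3.3, numpy 2.4.6 and matplotlib 3.10.9 were used.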

Additional observations from a re-analysis of the deposited data

How the results depend on the processing

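None of the 6 genes passed in any table under 4 other settings: the authors' deposited adjusted p column, the 3 tables adjusted together, Holm adjustment, and ratios centred on the median of all genes. The deposited column holds the same adjustment of the same p-values, and Holm adjustment is never below it. Neither could therefore add a pass, and only the joint adjustment and the centring could have changed a call. The adjusted p of H2-D1 between LB and CTL ran from 0.0742 (3 tables together) to 1 (Holm). Centring turned the sign of Psmb8 between LB and CTL (-0.00026) and of H2-T23 between UPS and LB (0.00491), both near 0. The other 70 of 72 recomputed ratios and interval widths were counted as unchanged, which shows little. Interval widths have no call or sign and counted as unchanged if they moved by less than the standard error. The deposited linear ratio is the same value rounded, so only centring could have changed a call. For Psmb8 between LB and CTL the rounded linear ratio is 1 and has no sign. Over all 478 genes, the 3 tables adjusted together called 3 between LB and CTL, 18 between UPS and CTL and 28 between UPS and LB. The centred ratios called 0, 20 and 34 in the same order. Holm adjustment, which is stricter by construction, called 0, 5 and 11. With so few genes past the threshold in each setting, 0 of 6 says little about the 6 genes. The single test over 3 groups called 33 genes and 0 of the 6 with 41 or 45 degrees of freedom as well. Animals could not be left out in turn, since the tables hold no values per library. No paired analysis was possible because the same tables carry no replicate columns. The depth of the libraries is unknown, and the intervals of Cd74 and H2-D1 are the widest of the 6.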
